A study of Mus musculus with 4 samples.

Results

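Cluster 5 is 1 of 13 groups into which the study's authors divided single mammary luminal cells, and 1 of 8 groups (clusters 4 to 11) that they labelled mature luminal. Its members are the cells whose deposited cluster number is 5, which gave 1484 of 32439 cells, and 1484 of the 23800 mature luminal cells. The cells came from female C57BL/6N mice of 6 weeks. Glands of 3 mice were pooled per genotype, luminal cells were sorted, and 2 libraries of 3′ transcript ends were made from each pool. The wild type (WT) mice were *Erbb3* +/+;MMTV-Cre, and the mutant mice were *Erbb3* V943R/V943R;MMTV-Cre, in which Cre removed a floxed wild-type cassette and exposed a substitution in the interface through which ERBB3 activates its partner ERBB2. Both groups therefore carried the Cre transgene, driven by the mouse mammary tumour virus promoter, which is active mainly in mammary epithelium. With 1 pool per genotype there was no replication between animals, no test was made, and all intervals given are 95% intervals that cover counting error only.

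Cells that commit to division pass from G1 into S phase when E2F transcription factors switch on cyclin E and the enzymes that license, open and copy DNA. Genes of mitosis, such as those for mitotic cyclins, centromere proteins and the activators of the anaphase-promoting complex, peak later, in G2 and M phase. In the mammary gland, mature luminal cells line the ducts, sense oestrogen, progesterone and prolactin, and include the cells that release amphiregulin. *Upk3a* encodes a uroplakin, a membrane protein best known from the bladder lining, *Fgb* the fibrinogen beta chain, *Cited1* a transcriptional coregulator, and *Mki67* the Ki-67 protein of dividing cells.

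The 4 libraries contributed 426 and 392 WT cells (WT A and WT B) and 318 and 348 mutant cells (mutant A and mutant B) to cluster 5. These cells held 2075445, 2327947, 1792838 and 2090940 unique molecular identifiers (UMIs), the tags by which captured transcripts were counted, and the median per cell was 5032.5 in WT and 5553.5 in mutant. That was more than in cluster 7, where the medians were 3736 and 4314, and close to cluster 6, where they were 4703.5 and 5477.5. Levels are given as UMIs of a gene for every 1000000 UMIs that the same group of cells held (CPM), in the order WT A, WT B, mutant A, mutant B. Of the cluster 5 cells, 48 (3.23%) carried a barcode that another library also held.

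Cluster 5 was the mature luminal cluster with the most transcripts of genes that act at the start of DNA replication, and it combined them with the highest *Upk3a*, *Cited1* and *Fgb* levels of the 8 clusters in WT. *Mcm5*, a subunit of the replicative helicase, stood at 222, 256, 235 and 257 CPM in cluster 5, and at 14.4 to 18.1 in the other 7 mature luminal clusters pooled. *Cdc20*, an activator of the anaphase-promoting complex, stood at 38.1, 45.1, 41.3 and 38.3 CPM, against 555, 519, 436 and 533 in cluster 6. Because the clusters were formed on the same expression values, every difference between clusters below describes how the cells were divided and is not an independent finding.

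The label was checked against markers first. The summed level of the mature luminal marker list lay between 18923 and 20257 CPM in the 4 libraries of cluster 5, within the 16812 to 23158 CPM of clusters 4 and 7 to 11. Of its 15 measurable members, 6 were above and 9 below the other mature luminal clusters in WT, with a median log2 ratio of −0.23. *Prlr*, the prolactin receptor, had a UMI in 96.6% of WT cluster 5 cells, and in 26.0% of cells of cluster 1, a luminal progenitor cluster. When every cell was thinned to 1000 UMIs (818 WT and 661 mutant cells of cluster 5 were deep enough, 5 mutant cells were not), these shares were 66.4% and 14.5%. *Kit*, a luminal progenitor receptor, went the other way, with 10 UMIs in WT and 11 in mutant cluster 5, and after thinning 0.122% of WT cluster 5 cells and 22.7% of cluster 1 cells had one. The whole luminal progenitor list was not absent. It summed to 357 to 424 CPM (3182 UMIs) in cluster 5, within the 316 to 534 CPM of clusters 4 and 7 to 11. The marker lists of cell types other than luminal were low in all 4 libraries. The basal list summed to 11 to 39.1 CPM (176 UMIs), the fibroblast list to 3.35 to 13.5 CPM (53 UMIs) and the immune list to 4.34 to 11.7 CPM (57 UMIs), with *Cd3e* and *Lum* at 0. The highest basal value was in WT B, where *Krt5*, a basal keratin, stood at 5.58 CPM while the other libraries had 0 to 0.478. The endothelial list reached 47.4 to 58.8 CPM, of which *Eng* supplied 432 of 444 UMIs, and *Cdh5*, *Kdr* and *Emcn* were at 0.

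*Upk3a* (ENSMUSG00000022435, GRCm38 chromosome 15 from 85017141 to 85022547, plus strand) stood at 7168, 7398, 5978 and 5941 CPM in cluster 5 and at 2322 to 2737 in the other mature luminal clusters. The log2 ratio in WT was 1.47 (1.45 to 1.49), and all 4 libraries of cluster 5 were above all 4 of the rest. By cluster in WT, the levels were ordered 5 (7290 CPM), 6 (6636), 7 (4726), 8 (2097), 4 (2077), 11 (1466), 9 (1403) and 10 (186). Clusters 5 and 6 were near each other, with a log2 ratio of 0.14 (0.11 to 0.16), and the mutant libraries of cluster 5 lay below the WT libraries of cluster 6 at 6601 and 6666 CPM. A *Upk3a* UMI was present in 93.6% of WT and 93.8% of mutant cells of cluster 5. The share in WT luminal progenitor cluster 1 was 26.4% at a median of 1827.5 UMIs, and after thinning the shares were 86.2% in cluster 5, 91.3% in cluster 6 and 14.3% in cluster 1. High *Upk3a* was therefore shared with cluster 6, and the share of cells with a UMI was larger there than in cluster 5.

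*Cited1* stood at 2496, 2729, 2082 and 2047 CPM in cluster 5, at 2340, 2402, 1801 and 1768 in cluster 6, and at 1572 in WT cluster 7. *Fgb* stood at 1860, 1906, 1233 and 1394 CPM in cluster 5, at 1415, 1325, 993 and 1075 in cluster 6, and at 1482 in WT cluster 7. Both exceeded the other mature luminal cells by 0.93 on the log2 scale in WT, and neither reached 1.5-fold over cluster 6, where the log2 ratios were 0.14 and 0.46. The 2 other uroplakins with enough UMIs did not share the pattern. *Upk2* had a log2 ratio of −0.24 (−0.44 to −0.05) to the other mature luminal cells, and *Upk3bl* was lower, at −1.66 (−2.45 to −0.97). Of the 6 measurable members of the fibrinogen and clotting list, *Fgb* was the 1 that was higher and *Serpine2*, a protease inhibitor gene at 1.45 to 5.74 CPM, the 1 that was lower, with −2.26 (−3.10 to −1.53), where 4.95% of all genes were higher and 3.41% lower. *F3* (tissue factor) had −0.51 (−0.57 to −0.44), and *Fgg*, the fibrinogen gamma chain, had −0.46 (−0.54 to −0.39).

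*Mki67* marked cluster 5 less than cluster 6. It stood at 60.2, 60.6, 68.6 and 59.3 CPM in cluster 5 and at 183, 153, 135 and 173 in cluster 6, a WT log2 ratio of −1.47 (−1.67 to −1.27). Against the other mature luminal clusters together, cluster 6 included, the ratio was 1.54 (1.34 to 1.74), and WT cluster 7 stood at 3.11 CPM. After thinning, 5.26% of WT and 6.05% of mutant cluster 5 cells had a *Mki67* UMI, against 17% of WT cluster 6 and 0.116% of WT cluster 7 cells.

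**Figure D1:**
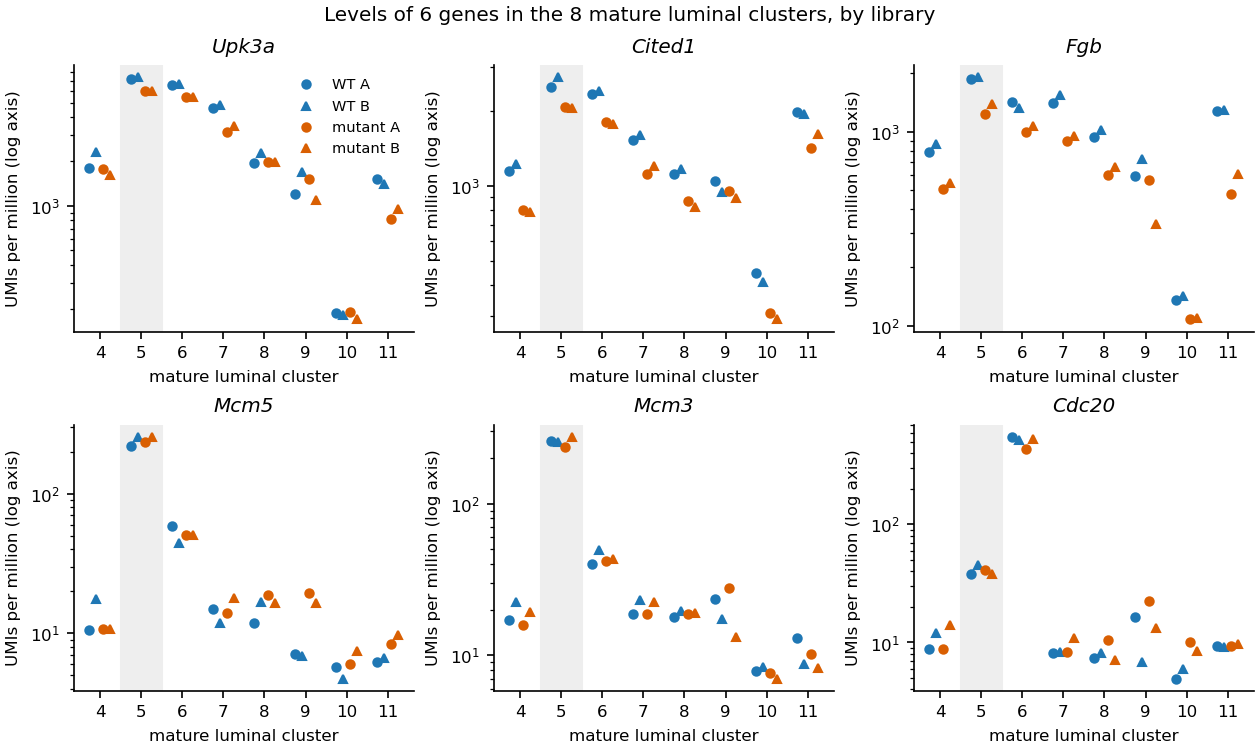
Levels of 6 genes in the 8 mature luminal clusters, in CPM on a log axis, with 1 point per library (circles for libraries A, triangles for B, blue for WT, orange for mutant) and cluster 5 shaded. Cluster 5 holds the highest *Mcm5* and *Mcm3* points (222 to 277 CPM), while its *Cdc20* points (38.1 to 45.1 CPM) lie under those of cluster 6 (436 to 555 CPM) and its *Upk3a* points near those of cluster 6.

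A gene was called higher or lower when its level differed by at least 1.5-fold in each of the 4 libraries. The side with the higher level also had to hold at least 50 UMIs in WT. Of the 14765 genes tested against the other mature luminal clusters, 731 (4.95%) were higher and 503 (3.41%) lower in cluster 5. Genes were tested with 50 WT UMIs on either side, and the other clusters together held more UMIs than cluster 5. At most 8359 of the 14765 held 50 UMIs in cluster 5 and could be called higher. The 4.95% set beside gene lists is therefore a low reference for genes abundant enough to be called. All 731 intervals of the higher genes excluded no difference, and 642 lay wholly past 1.5-fold. Of the 503 lower genes, 430 and 248 did. The balance of the directions depended on the scaling. Scaled by trimmed means of log ratios in place of total UMIs, the median log2 ratio over all genes moved from 0.01 to −0.12, and the counts became 584 higher and 759 lower (43.5% higher, against 59.2% by totals).

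The S phase list, the set of genes used to score S phase in single cells, stood out by its level. Of its 43 members, 42 were higher and none lower, with a median log2 ratio of 2.98 against 0.01 over all genes. For all 43 members the level was higher in cluster 5 than in any of the other 7 mature luminal clusters, in WT and in mutant cells. The 1 member not called was *Pold3*, a subunit of DNA polymerase delta, with 0.78 (0.56 to 0.98). Summed over the list, the libraries of cluster 5 lay between 4348 and 4690 CPM, those of cluster 6 between 1665 and 1824, and those of the remaining mature luminal clusters between 354 and 646. With the other scaling, 41 of the 43 were called.

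The 12 genes with the largest WT ratios all act at G1/S or in DNA synthesis and repair. *E2f1*, an activating E2F, stood at 106, 113, 128 and 122 CPM in cluster 5 and at 4.59, 5.35, 6.85 and 6.79 in the other mature luminal cells. The log2 ratio in WT was 4.46 (4.24 to 4.69). *E2f8*, a repressing E2F that is itself induced in S phase, stood at 17.8, 18.0, 17.8 and 11.5 CPM against 0.758 to 1.49, with 4.55 (3.99 to 5.14). Cyclin E was represented by both its genes. *Ccne1* stood at 89.6, 95.8, 112 and 99.5 CPM and *Ccne2* at 35.7, 37.4, 58.0 and 57.4, with log2 ratios of 4.08 (3.86 to 4.30) and 4.32 (3.94 to 4.70).

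Among the genes that prepare and copy DNA, *Cdc6*, which loads the helicase onto origins, stood at 38.5, 42.1, 32.9 and 38.7 CPM with a log2 ratio of 4.29 (3.94 to 4.65). *Mcm5* had 4.03 (3.90 to 4.17), and *Mcm10*, which helps to start the helicase, 4.03 (3.64 to 4.43). *Rrm2*, a subunit of the ribonucleotide reductase that supplies deoxynucleotides, stood at 237, 281, 270 and 325 CPM against 12.4 to 18.7, with 4.24 (4.10 to 4.38). The remaining genes maintain the copied strand. *Ung*, a glycosylase that removes uracil from DNA, had 4.19, the exonuclease gene *Exo1* 4.25 (3.88 to 4.61), *Rad51ap1*, which acts in recombination, 4.04 (3.80 to 4.28), and *Dscc1*, part of a clamp loader for sister chromatid cohesion, 4.42 (3.99 to 4.86). In every one of these 12 genes each cluster 5 library was above each library of the other mature luminal cells.

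Related lists also had members that were higher, where 4.95% of all genes were. Of 16 measurable genes of origin licensing and the MCM helicase, 15 were higher and none lower, with a median of 2.99. They included *Gmnn*, the licensing inhibitor geminin, at 281, 272, 224 and 254 CPM and a ratio of 3.19 (3.08 to 3.30). Of 11 genes of the E2F and RB axis, 9 were higher and none lower (median 2.17), among them *Tfdp1*, the dimerization partner of E2F, with 1.51 (1.35 to 1.67), and *Rbl1*, a pocket protein, with 2.17. Of 15 cyclins and CDK inhibitors, 6 were higher, 9 not called and none lower (median 0.73). *Ccnd1*, cyclin D1, stood at 743, 772, 802 and 826 CPM against 378 to 441, with 0.93, and *Ccnd3* at 136, 133, 117 and 125 with 1.03 (0.90 to 1.15). *Cdkn1a*, the inhibitor p21, had 0.01 (−0.07 to 0.10), and *Ccnd2* was nearly absent with 1 WT UMI.

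Mitotic genes were only partly raised in cluster 5. Of 54 genes of the G2 and M list, 27 were higher and none lower against the other mature luminal clusters, with a median of 1.15 against 0.01 over all genes, of which 4.95% were higher and 3.41% lower. With the other scaling 21 of the 54 were higher and 2 lower. Cluster 5 ranked 2 of 8, behind cluster 6, for 50 of the 54 in WT. *Top2a*, the topoisomerase that untangles replicated DNA, stood at 315, 318, 291 and 296 CPM and had a log2 ratio of 2.39. *Cdk1*, the mitotic kinase, stood at 186, 212, 189 and 173 CPM with 2.07, and *Cks1b*, its small partner, had 1.38 (1.29 to 1.46). *Ccnb2*, a cyclin of mitosis, stood at 67.9, 73.5, 80.3 and 59.3 CPM with 0.02 (−0.15 to 0.19). The list summed to 4202 to 4636 CPM in cluster 5, 11103 to 12421 in cluster 6 and 1106 to 1483 in the remaining mature luminal clusters.

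**Figure D2:**
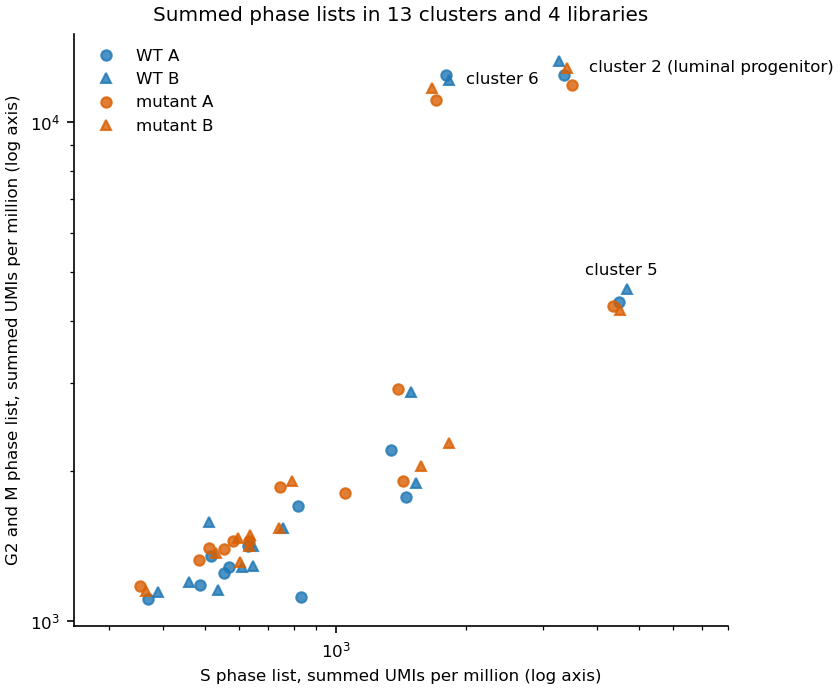
Summed CPM of the S phase list (x axis) and of the G2 and M list (y axis), both on log axes, with 1 point per cluster and library for all 13 clusters (circles for libraries A, triangles for B, blue for WT, orange for mutant). The cluster 5 points lie at 4348 to 4690 on x and 4202 to 4636 on y, the cluster 6 points at 1665 to 1824 and 11103 to 12421, with luminal progenitor cluster 2 beside them at higher x, and the other mature luminal points at 354 to 646 and 1106 to 1483.

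Compared directly with cluster 6, the other cluster rich in these transcripts, 155 (1.69%) of 9159 genes tested were higher and 205 (2.24%) lower in cluster 5. Every interval of these genes excluded no difference. Of the S phase list, 33 of 43 were higher and none lower, and of the G2 and M list none was higher and 44 of 54 lower (42 with the other scaling). The medians were 1.35 and −1.30, against −0.04 over all genes. The largest differences upward were again in G1/S genes. *Ung* stood at 148, 136, 143 and 146 CPM in cluster 5 and at 7.91, 10.5, 9.79 and 9.16 in cluster 6, a WT log2 ratio of 3.93 (3.52 to 4.37). *Cdc6*, *Ccne2* and *E2f1* followed with 3.30, 3.29 and 2.79. *Mcm3*, another helicase subunit, stood at 259, 255, 238 and 277 CPM against 39.9, 49.8, 42.1 and 42.9, with 2.51 (2.31 to 2.71). *Hells*, a chromatin remodeller of the replicating genome, had 2.40 (2.19 to 2.61), and *Dtl*, the ubiquitin ligase subunit that removes the licensing factor CDT1, 2.38 (1.80 to 3.01). *Chd3os*, an antisense transcript with 56 WT UMIs, had 2.70 (1.75 to 3.78), but whether the counting used strand is not given in the sources used here, and its reads could in part belong to the gene it overlaps.

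Of the 8 genes with the largest ratios downward, most act in mitosis. *Cdc20* had −3.68 (−3.90 to −3.47). *Cenpa*, the histone of centromeres, stood at 62.2, 64.9, 79.8 and 67.4 CPM against 720, 712, 638 and 691, with −3.49, and *Cenpf*, a kinetochore protein, at 50.1, 52.8, 46.3 and 40.2 against 494, 453, 377 and 454, with −3.20. *Cdkn3*, a phosphatase that acts on CDKs, stood at 14.9, 14.6, 14.5 and 10.5 CPM against 192, 177, 168 and 174, with −3.64. The phosphatase gene *Cdc25c*, whose product activates CDK1, had −3.14 (−3.60 to −2.71), and *Gas2l3*, which acts in cytokinesis, −3.26 (−3.98 to −2.62). *Pif1*, a DNA helicase, had 1 UMI in WT cluster 5 against 11.7 and 14.6 CPM in WT cluster 6, a ratio of −5.86 (−11.18 to −3.34). *Gm7856*, a predicted gene whose reads may come from a related gene, had −4.04 (−5.28 to −3.03). Between the 2 clusters no cluster 5 library overlapped a cluster 6 library for any of these 8 genes. *Cdkn3* was also lower than in the other mature luminal clusters together (−0.61), but without cluster 6 among them the ratio was 2.19, so that call rested on cluster 6.

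Of 14 measurable mature luminal markers, none was called between clusters 5 and 6, with a median of −0.00, where 1.69% of all genes were higher and 2.24% lower. *Prlr* stood at 1148, 1186, 1053 and 1231 CPM in cluster 5 and at 1078, 1128, 1025 and 1218 in cluster 6, with overlapping libraries and a log2 ratio of 0.08. Both were below the other mature luminal clusters together, at 1929 to 2251 CPM. Members of the cyclin list lower in cluster 5 than in cluster 6 were *Ccna2*, *Ccnb1*, *Ccnb2*, *Cdk1*, *Cdkn2d* and *Cdkn1b*. *Cdkn1b*, the inhibitor p27, stood at 25.1, 27.9, 23.4 and 27.7 CPM against 42.2, 47.8, 42.4 and 45.1, with −0.76 (−1.09 to −0.44).

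**Figure D3:**
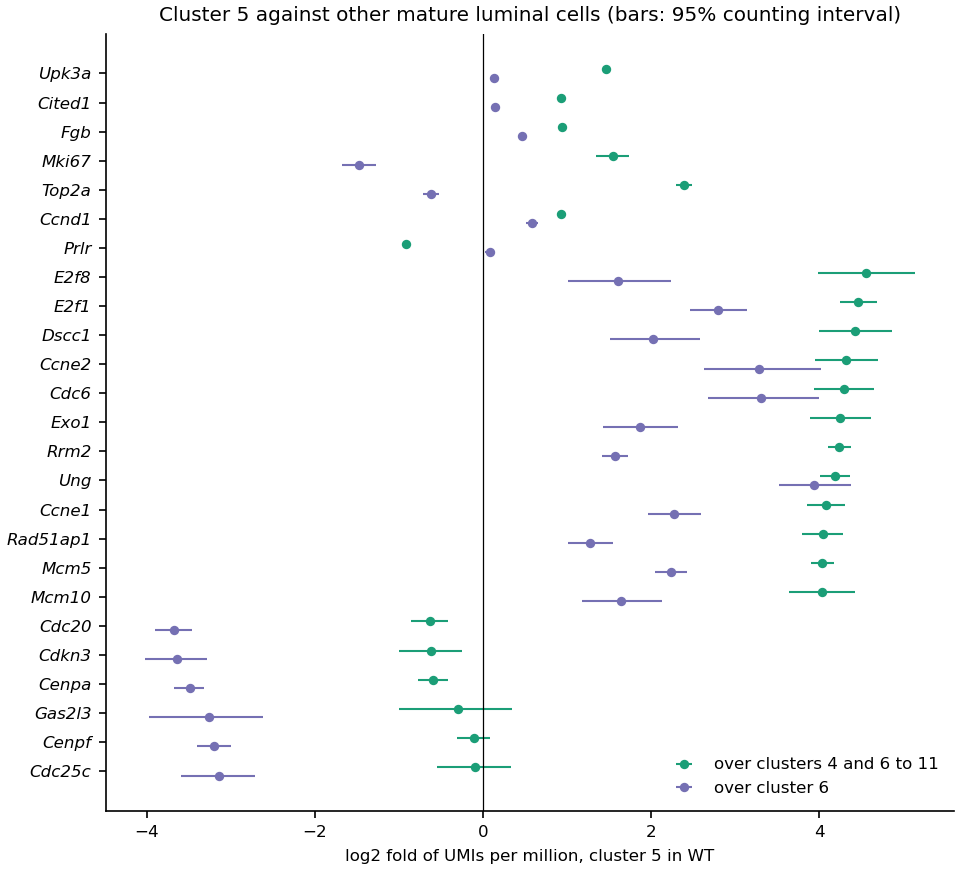
Log2 ratio of CPM of WT cluster 5 over the other mature luminal clusters (green) and over cluster 6 (purple) for the markers and named genes, with bars for the 95% counting interval. The G1/S genes from *E2f8* to *Mcm10* lie right of 0 in both comparisons (green 4.03 to 4.55), the mitotic genes from *Cdc20* to *Cdc25c* lie far left of 0 over cluster 6 (−3.68 to −3.14), and *Upk3a* and *Cited1* lie near 0 over cluster 6 (both 0.14).

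Within cluster 5, single cells held these transcripts in graded amounts. After thinning to 1000 UMIs, the mean was 4.70 S phase list UMIs per WT cell and 4.42 per mutant cell, with medians of 5 and 4, and 2.32% and 2.57% of cells had none. In cluster 6 the means were 1.73 and 1.64. Of WT cluster 5 cells, 50.5% had more S phase than G2 and M UMIs, and 37.0% had more G2 and M UMIs. In mutant cluster 5 the first share was 52.2%, and in cluster 6 it was 1.34% in WT and 1.46% in mutant. Cells held about as many UMIs of both lists, and the part that sampling of UMIs has in these shares was not tested. The shares therefore do not show different kinds of cells within cluster 5. They count transcripts per cell, not a phase measured in the cell. *Mcm5*, a single S phase gene, was found in 71.5% of WT cluster 5 cells before and 21% after thinning, and in 5.17% and 1.58% of WT cluster 7 cells.

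**Figure D4:**
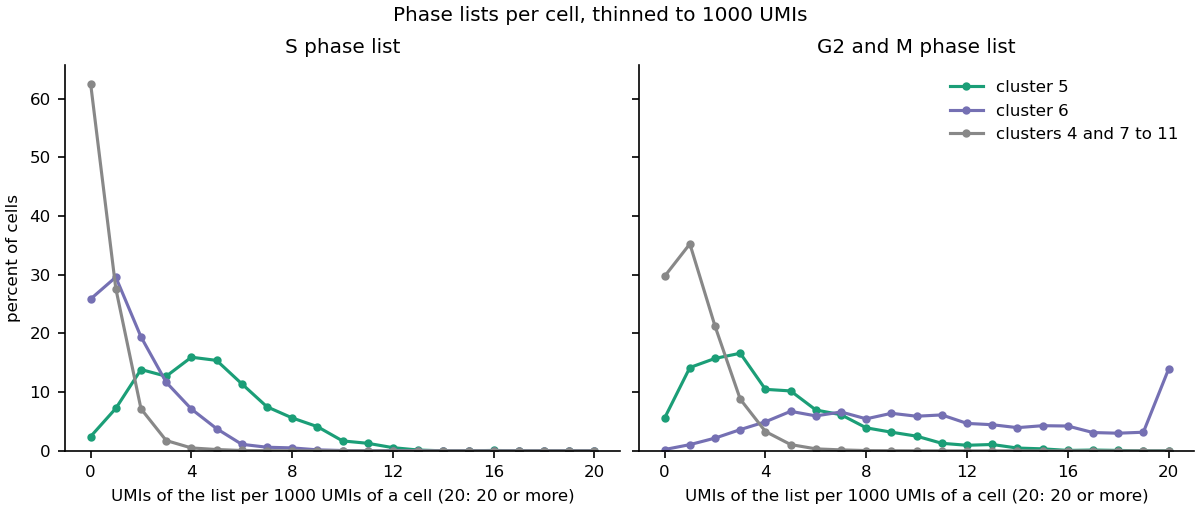
Percent of cells (y axis) by the number of UMIs of the S phase list (left) and of the G2 and M list (right) after each cell was thinned to 1000 UMIs (x axis, with 20 standing for 20 or more), both genotypes pooled, for cluster 5, cluster 6 and clusters 4 and 7 to 11. Cluster 5 peaks at 4 S phase UMIs and 3 G2 and M UMIs, cluster 6 peaks at 1 S phase UMI and spreads widely over the G2 and M list, and the other mature luminal cells peak at 0 and 1.

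Cluster 5 cells were then ordered by their thinned S phase UMIs (277 WT cells with 0 to 3, 428 with 4 to 7, and 113 with 8 or more). *Upk3a* stood at 6490, 7313 and 8692 CPM in these bins in WT A, at 7434, 7349 and 7493 in WT B, at 5856, 5883 and 6619 in mutant A and at 5916, 6063 and 5525 in mutant B. It was thus ordered in the A libraries and not in the B libraries. *Cited1* stood at 2222, 2554 and 3119 CPM in WT A and at 2531, 2802 and 2897 in WT B, while in mutant B its top bin was the lowest, at 1682. *Fgb* stood at 1619, 1973 and 2131 CPM in WT A and at 2228, 1851 and 1418 in WT B, which are opposite orders. *Areg*, which encodes amphiregulin, was lower with more S phase UMIs in both WT libraries, at 3722, 3608 and 3128 CPM in WT A and 4313, 3630 and 3108 in WT B. *Prlr* did likewise, at 1233, 1114 and 1030 CPM and 1307, 1140 and 1094. In the mutant the order was broken in 1 library for each, with *Areg* at 4459, 3754 and 3797 CPM in mutant B and *Prlr* at 1142, 954 and 1064 in mutant A. *Ccne1*, which is not a member of the S phase list that set the bins, stood at 68.8, 93.2 and 153 CPM in WT and at 78.0, 107 and 175 in mutant. The top bins held 51, 62, 45 and 41 cells in WT A, WT B, mutant A and mutant B. All bins come from 1 pool per genotype, and the UMIs that set them are part of each cell's total, so the orders are descriptions.

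Beyond the cell cycle, part of the genes of ribosome assembly were higher in cluster 5. Of 18 list members, 7 were higher, 11 not called and none lower, where 4.95% of all genes were higher (median 0.74, and 5 higher with the other scaling). *Ncl*, nucleolin, stood at 889, 924, 866 and 872 CPM against 549, 541, 494 and 525, and *Nolc1*, a nucleolar phosphoprotein, at 186, 192, 183 and 189 against 67.2 to 71.5, with 1.42 (1.31 to 1.53). *Srm*, spermidine synthase, had 1.09 (0.99 to 1.20) and *Dkc1*, which modifies ribosomal RNA, 1.02 (0.84 to 1.21). *Npm1*, nucleophosmin, had 0.41 (0.34 to 0.47) and was not called. Summed, the list lay between 2866 and 3000 CPM in cluster 5, 2094 and 2285 in cluster 6, and 1537 and 2054 in the rest. Of 16 genes of cholesterol and fatty acid synthesis, 3 were higher and none lower (median 0.39): *Fdps*, *Cyp51* and *Fasn*, with 1.04 (0.75 to 1.32), 1.11 (0.86 to 1.36) and 0.95 (0.74 to 1.15). Against cluster 6, where 1.69% of all genes were higher, 4 of 15 genes of ribosome assembly were higher. None of 14 genes of cholesterol and fatty acid synthesis was called there.

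Several lists had members that were lower and none that was higher, with most members not called, to be read against the 3.41% of all genes that were lower. Against cluster 6, where 2.24% of all genes were lower, none of 14 immediate-early and heat shock, 7 prolactin and 8 oestrogen response genes was called. Of 8 FOXO targets, 2 were lower than in cluster 6. The prolactin list summed to 2855 to 3124 CPM in cluster 5, 2886 to 3084 in cluster 6 and 3954 to 5002 in clusters 4 and 7 to 11. Of 14 immediate-early and heat shock genes, 3 were lower and none higher (median −0.53, and 5 lower with the other scaling). *Fosb* stood at 323, 317, 300 and 257 CPM against 654, 689, 498 and 481, with −1.07, and *Atf3* and *Hspa1a* had −0.64 and −0.73. *Fos* stood at −0.56 and *Jun* at −0.39 without meeting the fold. Of 11 FOXO targets, 4 were lower (median −0.47, and 5 lower with the other scaling), *Gadd45a*, *Txnip*, *Bcl6* and *Pik3ip1*, with −1.10, −0.72, −0.90 and −1.16. *Prlr* (−0.92) and *Elf5*, its downstream transcription factor in the gland (−1.07), were lower, and 6 other measured genes of the prolactin list were not called (3 of the 8 were lower with the other scaling). Of 9 oestrogen response genes 1 was lower, *Greb1*, at 1.12 to 3.83 CPM (4 with the other scaling), while *Esr1*, the oestrogen receptor, had −0.66 (−0.93 to −0.41) and *Pgr*, the progesterone receptor, −0.51 (−0.65 to −0.38). *Areg* stood at 3595, 3769, 4019 and 4006 CPM, with −0.01 (−0.03 to 0.01). Of 9 measurable basal markers, 4 were lower and none higher (median −0.87), the contractile genes *Acta2*, *Myl9*, *Mylk* and *Cnn1*. All were sparse in cluster 5, with 27, 4, 0 and 3 WT UMIs.

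The ErbB, ERK feedback and keratin lists are likewise to be read against the 4.95% of all genes that were higher and the 3.41% that were lower. Of the ErbB list, 8 genes were measurable and 2 were lower, the ligand genes *Epgn* and *Nrg4*, both under 10 CPM in cluster 5. Of 12 genes of ERK feedback 1 was higher, *Etv4*, an ETS factor, at 27.0, 26.6, 22.3 and 20.6 CPM with 1.32 (1.02 to 1.61), near its level in cluster 6. The 5 measurable luminal keratins were not called. For ranking, counts under 3 UMIs were raised to 3, while the ratios given are of the counts themselves. So ranked, the 8 genes with the largest ratios downward were all sparse, with 2 to 10 WT UMIs in cluster 5. They were *Meig1*, *Olfml3*, *Rasa4*, *Ptges* (a prostaglandin E synthase), *Aqp8* (a water channel), *Scarf2*, *Gm12873* and *Gm14161*, with ratios from −3.23 to −2.63. *Olfml3*, with 3 WT UMIs, had −3.16 (−5.44 to −1.60). Among abundant genes, chosen here after their values were seen, *Malat1*, a nuclear noncoding RNA, had −0.91 (−0.92 to −0.91). *Gpx3*, a secreted glutathione peroxidase, stood at 4464, 4617, 5882 and 6562 CPM against 10056, 9969, 12091 and 12239, with −1.14. *Gas6*, a ligand of TAM receptors, stood at 34.2, 36.1, 34.0 and 35.9 CPM against 172, 177, 162 and 156, with −2.31 (−2.55 to −2.08), and *Ido1*, which degrades tryptophan, had −1.74 (−1.84 to −1.65).

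The higher genes were compared with those of cycling luminal progenitors, cluster 2 against progenitor cluster 1, where 459 of 10018 genes tested (4.58%) were higher. Of the 731 genes higher in cluster 5, 649 could be tested there and 285 of these (43.9%) were higher, which is 62.1% of the 459. Against cluster 7 alone, a reference chosen after seeing the data, 709 of 10805 genes (6.56%) were higher in cluster 5 and 235 (2.17%) lower. Abundant genes that were not called in the progenitors included *Fgb*, *Ncl* and *Ccnd1*, whose WT log2 ratios of cluster 2 to cluster 1 were 0.16, 0.15 and 0.25. *Upk3a*, *Cited1*, *Mt2* (a metallothionein), *Cdk4* and *Crym* (a thyroid hormone binding protein) missed the rule on single libraries there, but their pooled ratios of 0.89, 0.62, 0.98, 0.62 and 0.91 were past 1.5-fold. These genes were chosen after their values were seen. *Crym* stood at 624, 655, 884 and 1064 CPM in cluster 5 against 262, 281, 416 and 457, with 1.24 (1.18 to 1.29). When each library's cells were assigned to the closest cluster profile of another library, 78.9% to 84.4% of cluster 5 cells returned to cluster 5 over the 12 pairs of libraries. More cells were assigned to cluster 5 than carry its number, 7.04% to 9.70% of mature luminal cells, and 58.2% to 64.9% of those assigned were cluster 5 cells. Leaving out the genes higher in clusters 2, 5 or 6, 54.8% to 67.9% still returned (40.4% to 56.2% of the cells then assigned to cluster 5), while 10.3% to 25.5% went to cluster 6 and 5.03% to 9.39% to cluster 7. The cluster numbers were drawn from these same values in all 4 libraries, so the return is not an independent check. Cell cycle genes that missed the fold rule, and all lower genes, stayed in, so these shares do not show an identity apart from the cell cycle.

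Because E2F factors bind known short elements, the promoters of these genes were searched for the letters TTTCCCGC or TTTGGCGC on either strand, in RefSeq windows (GRCm38.p6) from 250 bases before to 50 bases after each gene's start. Of 27025 genes with a window, 486 (1.80%) held a match. Among those tested against the other mature luminal clusters, 342 of 9206 (3.71%) did. Of the genes higher in cluster 5 it was 68 of 569 (12%), and of the lower ones 7 of 330 (2.12%). Of those higher than in cluster 6 it was 28 of 123 (22.8%), and of those lower 3 of 156 (1.92%). The share over all genes tested against cluster 6 was not counted. These sets overlap, as 134 of the 155 genes higher than in cluster 6 were among the 731. The share was 10 of 31 (32.3%) in the S phase list and 2 of 47 (4.26%) in the G2 and M list. Of the 12 genes with the largest ratios over the other mature luminal clusters, 9 had a window and 2 held a match, and of the 8 with the largest ratios over cluster 6 it was 4 of 6. Matches of 4 of these genes and of *Cited1* are shown because they carry the letters that this share counts, each as 24 bases read 5′ to 3′ on the gene's strand, with the matching letters in capitals. *Cdc6* is given from chr11:98908005-98908028 (plus strand), *Mcm5* from chr8:75109352-75109375 (plus), *Hells* from chr19:38930920-38930943 (plus), *Dtl* from chr1:191575537-191575560 (minus) and *Cited1* from chrX:102250847-102250870 (minus).
Cdc6: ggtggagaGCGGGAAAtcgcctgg
Mcm5: gaactttcGCGCCAAAacgtccag
Hells: caccgggtTTTCCCGCgaaagaga
Dtl: gacgtcagTTTGGCGCggagtttg
Cited1: tgccgctgGCGCCAAAgtgcgccc
In *Cdc6*, *Mcm5* and *Cited1* the letters lie on the opposite strand and read as their reverse complement here. The matches begin 138, 149, 62, 8 and 86 bases before the start of the gene, in the order of the sequences. Neither motif was found in the windows of *Upk3a* and *Fgb*, which says only that these letters are not in those windows, and a match describes sequence and not binding.

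The share of cells in cluster 5 was compared between genotypes next. It was 4.43% in WT A, 4.35% in WT B, 4.64% in mutant A and 5.01% in mutant B. Pooled, it was 4.39% (4.10 to 4.69) in WT and 4.83% (4.47 to 5.20) in mutant, a ratio of 1.10 (0.995 to 1.22). Both mutant values were above both WT values, but the ratio depended on the denominator. Among mature luminal cells the shares were 5.79%, 5.74%, 6.65% and 7.20%, a ratio of 1.20 (1.09 to 1.33). Outside cluster 11, which held 2863 WT and 670 mutant cells, they were 5.21%, 5.16%, 4.87% and 5.27%, a ratio of 0.978 (0.885 to 1.08), and the libraries overlapped. Of the cells in clusters 5 and 6 together, cluster 5 took 44.9%, 46.5%, 43.5% and 45.6%, a ratio of 0.977 (0.905 to 1.05).

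Between the genotypes, few genes differed within cluster 5 and most of them were sparse. A gene was called here when both mutant libraries lay beyond both WT libraries, the pooled ratio reached 1.5-fold, and the higher genotype held at least 50 UMIs. Of 8359 genes tested, 163 (1.95%) were higher and 91 (1.09%) lower in the mutant. The higher genes had a median of 133 UMIs over both genotypes and the lower ones 110, and only 10 and 3 of their intervals lay wholly past 1.5-fold. The minimum of 50 UMIs was also kept when a library was left out. A gene with under 100 UMIs in its higher genotype therefore lost its call without 1 of that genotype's libraries, whatever its ratio. This held for 99 of the 163 higher and 71 of the 91 lower genes. Leaving out single libraries gave 90 to 258 higher and 50 to 271 lower genes, and each library alone moved at least 1 of these counts by over 1.5 times. Of the 163 higher genes, 131 and 107 were still called without WT A and WT B, but 46 and 55 without mutant A and mutant B. Of the 91 lower genes, 21 and 16 were still called without WT A and WT B, and 64 and 63 without mutant A and mutant B.

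*Erbb3* itself (chromosome 10) stood at 40.0, 36.9, 21.8 and 20.6 CPM in cluster 5, or 169 WT and 82 mutant UMIs, a log2 ratio of −0.86 (−1.26 to −0.47). The mutant libraries lay below the WT libraries, also without any 1 library, and the ratios in cluster 6 and in the other mature luminal clusters were −0.81 and −1.12. Genotype ratios of the other mature luminal clusters, here and below, are of their pooled cells, and the mix of clusters in that pool differed between genotypes. Cluster 11 gave it 2863 WT but 670 mutant cells. Tags of the transcript's 3′ end do not read the changed codon, so these levels do not check the genotype. In the paper's construct, the cassette that Cre removes ends in a human growth hormone 3′ untranslated region. Transcripts of an allele that kept it might not be counted as *Erbb3*, and their share was not tested. *Erbb2*, its partner, had 0.16 and was not called.

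Among the genes highest in cluster 5, calls between the genotypes were about as rare as over all genes, of which 1.95% were higher and 1.09% lower. Of 43 S phase genes tested, 1 was higher and 1 lower in the mutant (median −0.07, against −0.01 over all genes), and of 47 G2 and M genes none was called (median −0.08). The called genes were *Ccne2*, with 0.66 (0.36 to 0.96), and *Dscc1*, at 29.9, 28.4, 17.3 and 19.1 CPM with −0.67 (−1.11 to −0.24), and both stayed called without any 1 library. *Ccne2* had 0.45 in cluster 6 and 0.73 in the other mature luminal clusters, and *Dscc1* −0.20 and 0.24. Of 15 licensing and MCM genes none was called (median −0.14). *Upk3a*, *Cited1* and *Fgb* had ratios of −0.29 (−0.32 to −0.27), −0.34 and −0.51, under the fold required, with both mutant libraries under both WT libraries for each. The ratios were −0.29, −0.41 and −0.40 in cluster 6, and −0.51, −0.44 and −0.68 in cluster 7.

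The 8 largest ratios upward in mutant cluster 5 belonged to 5 genes of known product and 3 predicted genes. *Gsta4*, a glutathione transferase, stood at 189, 196, 432 and 535 CPM, or a log2 ratio of 1.34 (1.22 to 1.46), and *Krt4*, a keratin, at 90.6, 82.5, 222 and 213 CPM, with 1.33 (1.15 to 1.51). *Rgs2*, a regulator of G protein signalling, stood at 35.7, 35.2, 77 and 75.6 CPM, with 1.11 (0.82 to 1.39). These 3 were called without any 1 library, as was *Gm9513*, a predicted gene at 11.6, 15, 59.1 and 59.8 CPM with 2.15 (1.73 to 2.59). Pooled over the other mature luminal clusters, the ratios had the same direction, with 1.41, 0.80, 1.15 and 0.99 for *Gsta4*, *Krt4*, *Rgs2* and *Gm9513*. In cluster 11 alone *Krt4* had −0.59 (−1.40 to 0.14), from 106 WT and 18 mutant UMIs. *Arg1*, arginase, stood at 8.67, 6.44, 29.0 and 12.9 CPM, with 1.44 (0.84 to 2.07). Without mutant A its ratio was 0.78, and it missed the UMI minimum. *Dcpp3*, a secreted protein gene with near copies in the genome, stood at 40.0, 43.8, 62.5 and 143 CPM, with 1.34 (1.08 to 1.59). It was not called without mutant B (0.57), and its ratios in cluster 6 and in the other mature luminal clusters were −0.31 and −0.52. The predicted genes *Gm6222* and *Gm37510* had 1.27 and 1.13. Neither was called when a mutant library was left out, though the ratios were then still past 1.5-fold, at 1.48 and 0.99 for *Gm6222* and 1.33 and 0.87 for *Gm37510* without mutant A and mutant B.

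All 8 of the largest ratios downward belonged to genes at 25.5 CPM or less in each library. *Degs1*, a ceramide desaturase, stood at 12, 16.3, 3.90 and 3.35 CPM, with −1.99 (−2.94 to −1.14), and *Lrg1*, a secreted glycoprotein, at 22.6, 18.0, 8.92 and 5.74 CPM, with −1.49 (−2.16 to −0.86). Their ratios in the other mature luminal clusters pooled were −1.14 and −1.49. In single clusters of that pool they ran from −1.44 (cluster 6) to −0.26 (cluster 9) for *Degs1*. For *Lrg1* they ran from −1.69 in cluster 11, which had most of it in WT, to −0.72 in cluster 10. *Gm13736*, a predicted gene with possible shared reads, had −2.14 (−3.29 to −1.14), and −3.74 in cluster 6. *Tph1*, a tryptophan hydroxylase, stood at 13.5, 14.2, 7.25 and 5.26 CPM with −1.16 (−1.91 to −0.46). It was also lower in mutant cluster 4, with −0.60 (−0.87 to −0.33). Its ratio was 0.39 in cluster 6, −0.14 to 0.18 in clusters 7 to 11, and −0.10 in the other mature luminal clusters pooled. The antisense gene *Fam120aos*, *Xaf1*, *Gch1* (which starts tetrahydrobiopterin synthesis) and *0610009L18Rik* had −1.15, −1.09, −1.08 and −1.03. These calls did not hold without single libraries, but the UMI minimum was kept there, and genes this sparse can miss it whatever their ratio. *Degs1*, *Lrg1* and *Tph1* held 63, 89 and 61 WT UMIs. Without WT A, the ratio of *Xaf1* fell under 1.5-fold (−0.51), while the other 7 genes kept ratios of −2.37 to −0.74. The difference between clusters in any gene's genotype ratio was not tested.

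**Figure D5:**
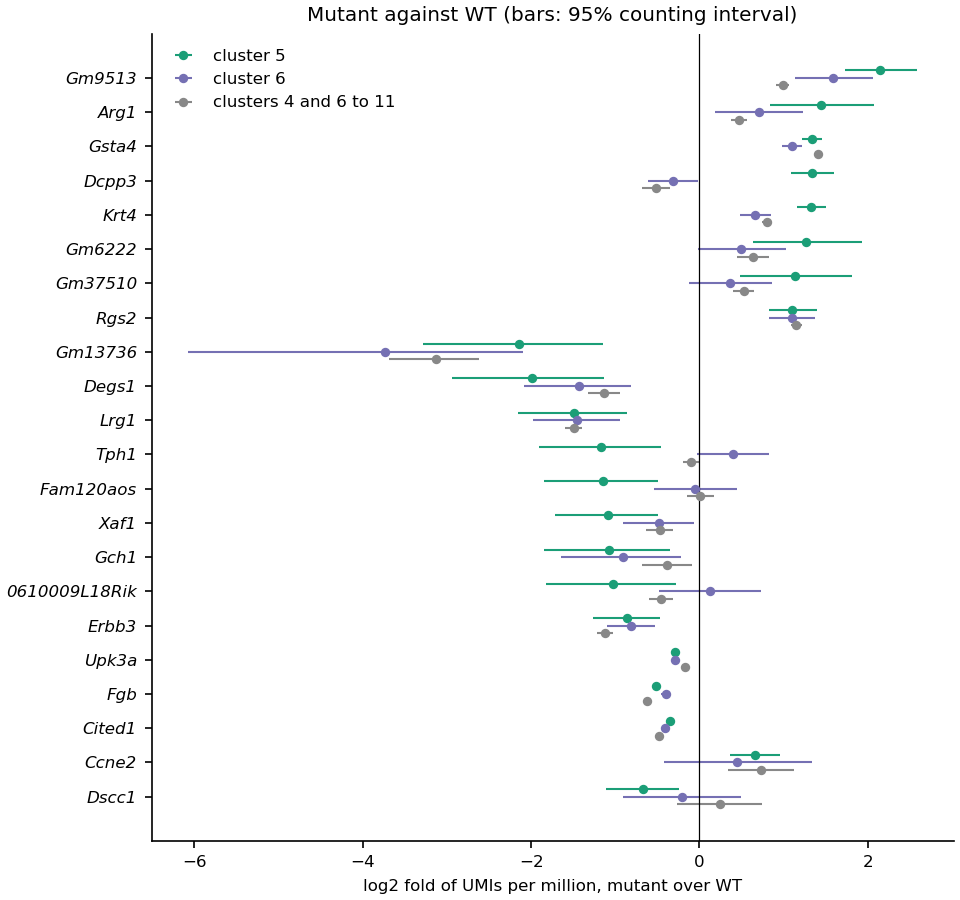
Log2 ratio of CPM in mutant over WT for the 16 genes with the largest called ratios in cluster 5 and for *Erbb3*, 3 markers, *Ccne2* and *Dscc1*, in cluster 5 (green), cluster 6 (purple) and all mature luminal clusters but 5 (grey), with bars for the 95% counting interval. The grey points are of pooled cells, whose mix of clusters differed between genotypes. *Gsta4*, *Krt4* and *Rgs2* lie right of 0 in all of them (0.66 to 1.41), while *Dcpp3* does so in cluster 5 (1.34) and not in the others (−0.31 and −0.52).

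Of the lists of signalling and metabolism, few members differed between the genotypes in cluster 5, and single calls stand against 1.95% of all genes higher and 1.09% lower. In the ErbB list 1 of 6 measurable genes was lower, *Erbb3*. In the ERK feedback list 1 of 9 was higher, *Spry1*, an inhibitor of receptor signalling, at 11.6, 8.59, 13.9 and 19.1 CPM with 0.74. Its ratio fell under 1.5-fold without WT B (0.53) and without mutant B (0.48). Without mutant A it was 0.94, and the UMI minimum was missed. In the cholesterol list 1 of 13 was higher, *Fdps*, at 25.1, 31.4, 44.1 and 42.6 CPM with 0.61 (0.27 to 0.95), which was not called without WT A (0.46) or mutant A (0.58). None of 14 mature luminal markers and none of 14 immediate-early and heat shock genes was called, with medians of 0.01 and −0.21. *Crym*, higher in cluster 5 than in the rest, was also higher in its mutant cells, with 0.61 (0.54 to 0.68), and the ratio in the other mature luminal clusters was 0.68. It was not called without WT A (0.58) or without mutant B (0.46).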

How the data were processed

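Luminal cells of 1 pool of 3 mice per genotype were profiled as 2 droplet libraries each. The authors aligned reads to GRCm38 with GSNAP, demultiplexed with CASAVA (1.8) and bcl2fastq (2.20), according to the submitters' processing notes, and clustered in Partek Flow with a Seurat resolution of 0.6. Cell filters, strand use and treatment of doublets are not given in the sources used here. The deposited values are a signal per gene and cell, UMIs multiplied by the authors by 1 factor per cell, with totals between 3516 and 3726. Dividing by the smallest step of each cell gave whole numbers within 0.02 for 100% of values, and these UMIs were used. No sample column was left unused (0). Clusters, cell types and genotypes were taken from the table's own rows. Its library numbers matched no sample label, so libraries are called A and B within a genotype.

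UMIs were summed per cluster and library over 52636 genes, of which 32271 had a UMI, and divided by the total. Ratios carry conditional binomial intervals for UMIs, shares exact Clopper-Pearson intervals, and ratios of shares log-normal intervals, all at 95% and for counting error only. A gene was called at 1.5-fold and 50 UMIs, in each of 4 libraries between clusters, and with no overlap of libraries between genotypes. Named genes were the markers, the genes the study names for its single cells, the 12 highest and 8 lowest ratios against the other mature luminal clusters, the 8 in each direction against cluster 6 and between genotypes, and, of lists, the members with most UMIs or called. Ratios were ranked with counts under 3 UMIs raised to 3. The cluster, its markers, the lists and the tests were chosen with earlier results of these data known. Gene positions are those of GRCm38 (GENCODE vM21). Scrublet, run through scanpy, called 1 of 32439 cells and was not used as a call, and leaving out the 6% of cells with the highest scores, which held 39 (2.63%) of the cluster 5 cells, served as an alternative. The other alternatives were another scaling (trimmed mean of log ratios), the mean over cells, other UMI minimums, other reference clusters, other denominators and leaving out a library. The counting rules were run on Poisson counts simulated without variation between pools, libraries or cells. Such counts check arithmetic and counting error only, and not how the rules behave with 1 pool per genotype. Python 3.11.15, numpy 2.4.6, pandas 2.3.3, scipy 1.17.1, scanpy 1.11.5 and matplotlib 3.10.9 were used.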

Additional observations from a re-analysis of the deposited data

Results flagged for a closer look

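*Cdkn3* and *Cenpf*, both genes of cell division, had genotype ratios of opposite sign in cluster 5 and in the other mature luminal clusters pooled. In cluster 5 the mutant to WT log2 ratio was −0.26 for *Cdkn3* (−0.83 to 0.30) and −0.26 for *Cenpf* (−0.56 to 0.03), with both mutant libraries under both WT libraries, while in the pooled clusters both mutant libraries were above both WT libraries, with 0.27 and 0.17. In cluster 6, which is part of that pool and has most of both transcripts, the ratios were −0.11 and −0.19, the same sign as in cluster 5. There were 974 WT and 828 mutant cells in cluster 6 but 2863 WT and 670 mutant cells in cluster 11, and their part in the pooled values was not tested. No ratio reached 1.5-fold, and the difference between the clusters was not tested.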

How the results depend on the processing

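The ratio of the cluster 5 share between mutant and WT was 1.06 to 1.14 on leaving out single libraries, 0.978 outside cluster 11, and 1.34 or 1.37 when mature luminal cells were assigned by WT B profiles with all genes or without genes that differ by genotype (1.18 and 1.19 by WT A profiles). These assignments, chosen after seeing the data, are among mature luminal cells, where the deposited ratio was 1.20, and rest on 1 WT library each. Without genes higher in clusters 2, 5 or 6, WT B profiles assigned 7.25% of WT A, 11.2% of mutant A and 11% of mutant B cells to cluster 5, and WT A profiles 5.91% of WT B, 9.23% of mutant A and 8.65% of mutant B cells. The counts of genes higher and lower in mutant cluster 5 became 443 and 320 with a minimum of 20 UMIs and 64 and 20 with a minimum of 100. Leaving out WT A, WT B, mutant A or mutant B gave 258, 224, 90 and 129 higher and 69, 50, 196 and 271 lower genes, a range of 90 to 258 and of 50 to 271. Against the other mature luminal clusters, 575 to 812 genes were higher and 536 to 747 lower on leaving out single libraries. With no rule on single libraries these counts were 1205 and 2035, with the trimmed mean scaling 759 were lower, and against cluster 7 alone, a reference chosen after seeing the data, 235 were lower. *Cdkn3* turned to 2.19 and *Pif1* to 0.60 when cluster 6 was left out of the reference, and *Cdkn3* to 1.52 against cluster 7, since cluster 6 holds most of both transcripts. Of the values of named genes, 949 planned and 13 added ones stayed within their counting interval, and 115 and 37 moved out of it. A change of sign was counted apart only for genes called in the main comparison, so these moved values can include uncalled genes that changed sign. No paired analysis was possible because the library numbers in the table match no replicate label and no test was made. With 1 pool per genotype, differences between animals and between pools cannot be told apart from the genotype, and genes under 50 UMIs in both genotypes could not be judged.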
